A study of Sus scrofa with 11 samples.

Results

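The 7 subunit genes of the AMP-activated protein kinase (AMPK) and STK11, the gene of its main activating kinase LKB1, were followed in pig carotid artery. The 8 genes were found by symbol among the 35670 genes of the count table, and each had 1 entry. They were chosen with the treatment contrast in view, because PRKAG3 ranked highest by p among the genes with lower counts in treated animals. Their differences between the treatment groups are therefore given as a description and carry no test.

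All pigs ate a high-fat, high-calorie Western diet for 12 weeks and received a weekly intravenous infusion at 400 nM under anaesthesia, each lasting 15 to 30 minutes. One group received single-walled carbon nanotubes alone (SWNT). The other (SWNT-SHP1i) received nanotubes that carried a chemical SHP-1 inhibitor, SHP-1 being a phosphatase, and this was a treatment aimed at macrophages and at their clearance of dying cells in atherosclerosis. Carotid arteries of 5 SWNT and 5 SWNT-SHP1i animals were compared by poly-A RNA sequencing, 1 library per animal, and a further SWNT-SHP1i animal (replicate 4), labelled as dead before harvest, was not analysed here. The labels give no untreated group, no age, strain or sex, and no second carrier dose, so the nanotubes, the diet and the anaesthesia were shared by both groups.

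AMPK is an energy sensor built from 1 catalytic alpha, 1 scaffolding beta and 1 regulatory gamma subunit. Falling ATP lets AMP or ADP bind the gamma subunit, which favours phosphorylation of the alpha subunit by LKB1, and the active kinase then restrains lipid and protein synthesis and favours fuel uptake and oxidation. PRKAG3 encodes the gamma subunit known mainly from fast skeletal muscle, and in pigs it is known as a gene of muscle glycogen content and meat quality. In arteries AMPK is studied in endothelium and smooth muscle.

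Total counts per library ran from 27593564 in SWNT-SHP1i replicate 6 to 47718854 in SWNT replicate 3. Of all genes, 15930 passed a filter on low counts, and all 8 members were among them. SWNT replicate 3 and SWNT-SHP1i replicates 3 and 6 stood apart from the other 7 libraries. A count above 0 was recorded for 17259, 14497 and 17691 genes in these 3 libraries, against 18889 to 19942 genes in the others. Replicates 3 of both groups are also the 2 libraries whose animal numbers do not begin with B9, and nothing in the labels says that this marks a batch. Smooth muscle markers defined the tissue in every library, with a summed level of at least 26430 CPM (counts scaled to equal library sizes). That lowest sum was in SWNT-SHP1i replicate 6, where the macrophage markers reached their highest sum, 7598 CPM.

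PRKAG3 was the member that differed most between the groups. It lies on chromosome 15 from 120855201 to 120866332 on the minus strand (Sscrofa11.1), with 14 exon blocks. Its counts in SWNT replicates 1 to 5 were 308, 562, 391, 375 and 416. The SWNT-SHP1i libraries (replicates 1, 2, 3, 5 and 6) had 219, 178, 178, 207 and 68 counts. Scaled to RPKM (CPM per kilobase of exon), PRKAG3 stood at 1.20, 2.84, 1.49, 1.61 and 2.13 in the SWNT libraries. In the SWNT-SHP1i libraries it stood at 0.952, 0.744, 0.827, 1.06 and 0.484 RPKM. Every SWNT-SHP1i library lay below every SWNT library, and the gap between the nearest libraries, 1.20 in SWNT replicate 1 and 1.06 in SWNT-SHP1i replicate 5, was small beside the spread within SWNT. The group means were 1.85 ± 0.644 RPKM (SD, n = 5) in SWNT and 0.814 ± 0.220 RPKM (SD, n = 5) in SWNT-SHP1i. The fitted log2 fold change of SWNT-SHP1i over SWNT was -1.18 ± 0.31 (SE), which is a 2.27-fold higher level in SWNT. It stayed between -1.31 and -0.98 when each library was left out in turn, was -1.01 without SWNT-SHP1i replicates 3 and 6, and was -1.18 with a term for the animal number range. By p the gene stood at rank 11 of all tested genes and at rank 1 among those with a lower level, which is how it was selected.

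Over all genes, edgeR's quasi-likelihood test with Benjamini-Hochberg adjustment called 0 of 15930 genes (0%) at an adjusted p under 0.05. At an unadjusted p under 0.05 there were 739 genes (4.64%), among them 183 (1.15% of the tested genes) with a lower level in SWNT-SHP1i. DESeq2 and limma-voom also called 0. In 44 genes (0.276%) all SWNT-SHP1i libraries lay below all SWNT libraries. Among the 8 members 0 were called and 1, PRKAG3, had groups that did not overlap. Because PRKAG3 was selected on this contrast, nothing is read from that count.

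**Figure D1:**
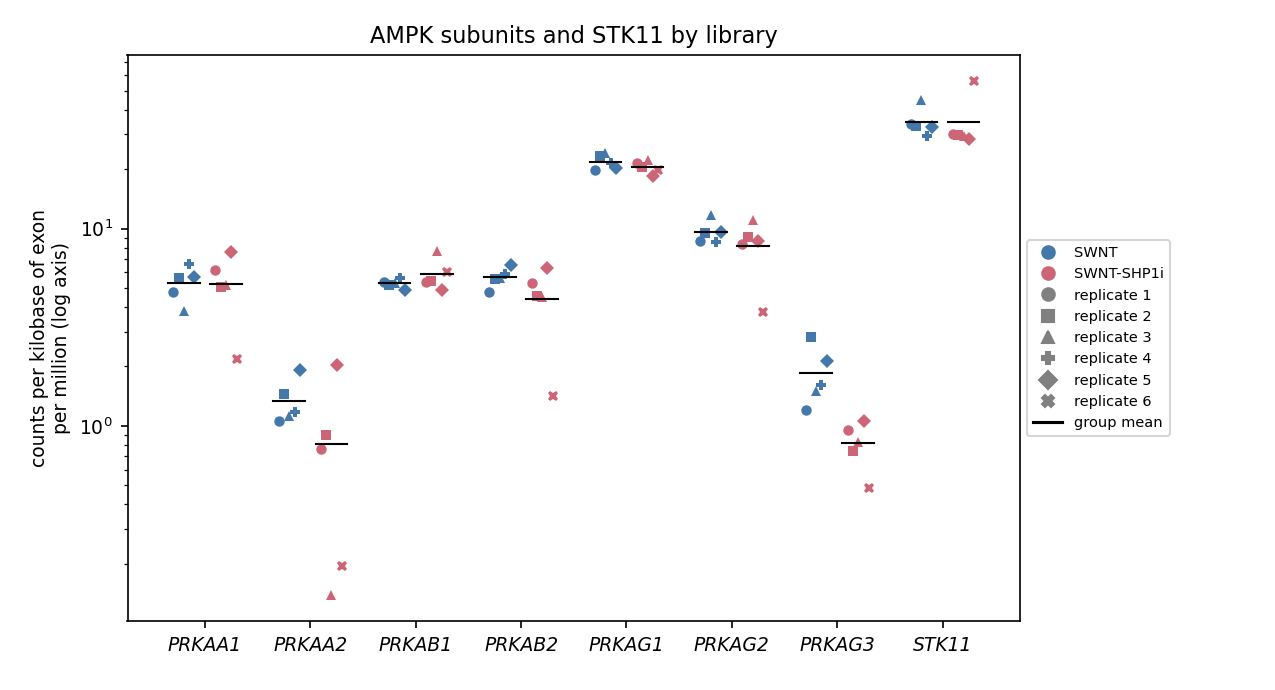
Level of each of the 8 genes in each library, in RPKM on a log axis, with SWNT and SWNT-SHP1i libraries apart, each library marked by its replicate and each group mean as a bar. PRKAG3 is the only one of the 8 genes whose groups do not overlap, and SWNT-SHP1i replicate 6 is the lowest library for 4 of the 8 genes.

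The gamma subunits bind the adenine nucleotides, and 2 of the 3 are widely expressed. PRKAG1 (chromosome 5, 15033058 to 15049735, minus strand), the ubiquitous gamma subunit, was at 19.8, 23.3, 24.2, 21.4 and 20.3 RPKM in SWNT replicates 1 to 5. In SWNT-SHP1i replicates 1, 2, 3, 5 and 6 it was at 21.4, 20.5, 22.3, 18.5 and 19.9 RPKM. These groups overlapped almost wholly, and PRKAG1 was the steadiest member, with a coefficient of variation of 8.2% over the 10 libraries. PRKAG2 (chromosome 18, 5475077 to 5744657, plus strand), the subunit best known from heart, was at 8.61, 9.52, 11.8, 8.54 and 9.57 RPKM in the SWNT libraries. Its SWNT-SHP1i values were 8.31, 9.08, 11.11, 8.61 and 3.77 RPKM. All but the last of these lay close to the SWNT range. The log2 fold change was -0.09 ± 0.15 (SE) for PRKAG1 and -0.23 ± 0.25 for PRKAG2, and the latter was -0.05 without SWNT-SHP1i replicate 6.

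PRKAG3 gave the smallest share of the gamma subunits' RNA. In SWNT, PRKAG3 gave 5.55% ± 1.72 (SD, n = 5) of the summed gamma RPKM, with libraries from 3.99% to 7.94%. In SWNT-SHP1i it gave 2.75% ± 0.689 (SD, n = 5), from 2.01% to 3.76%. Here too the groups did not overlap, which follows from the selection of the gene. PRKAG1 gave 65.6% ± 1.75 of the gamma sum in SWNT and 70.1% ± 7.08 in SWNT-SHP1i (SD, n = 5 each), and these ranges overlapped. The gamma sum itself was 33.2 ± 3.22 RPKM in SWNT and 29.5 ± 3.7 RPKM in SWNT-SHP1i. These shares rest on an exon model of PRKAG3 that reaches far beyond the RefSeq gene, and divided by the exon bases within RefSeq its share was 16.4% ± 4.47 in SWNT and 8.65% ± 2.03 in SWNT-SHP1i (SD, n = 5 each).

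The catalytic subunits are PRKAA1, the form that predominates in most non-muscle cells, and PRKAA2, the form prominent in heart and skeletal muscle. PRKAA1 (chromosome 16, 25745324 to 25783707, minus strand) was at 4.76, 5.63, 3.82, 6.61 and 5.65 RPKM in SWNT replicates 1 to 5. It was at 6.13, 5.08, 5.18, 7.65 and 2.17 RPKM in SWNT-SHP1i replicates 1, 2, 3, 5 and 6. The highest and the lowest of all 10 libraries were both SWNT-SHP1i libraries, replicates 5 and 6. The log2 fold change was -0.01 ± 0.30 (SE), and leaving out single libraries moved it between -0.19 and 0.18.

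PRKAA2 (chromosome 6, 155681784 to 155754278, minus strand) had the widest relative spread of the members, 58.4% of its mean. Its counts were 119, 125, 128, 119 and 163 in the SWNT libraries. They were 77, 94, 13, 173 and 12 in the SWNT-SHP1i libraries, so replicates 3 and 6 held few counts behind their values. On the RPKM scale SWNT ran from 1.06 to 1.91, and SWNT-SHP1i replicates 1, 2, 3, 5 and 6 were at 0.767, 0.90, 0.138, 2.03 and 0.196. Thus 4 SWNT-SHP1i libraries lay below all SWNT libraries and replicate 5 lay above them all. The log2 fold change, -0.73 ± 0.64 (SE), rested on single libraries. It was -1.41 without SWNT-SHP1i replicate 5, -0.46 without replicate 3, -0.48 without replicate 6 and -0.12 without replicates 3 and 6 together. PRKAA2 gave 20.3% ± 3.95 of the summed alpha RPKM in SWNT and 11.6% ± 6.94 in SWNT-SHP1i (SD, n = 5 each), with overlapping ranges.

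The beta subunits hold the complex together and carry a glycogen-binding module. PRKAB1 (chromosome 14, 33201669 to 33217539, minus strand) was at 5.36, 5.17, 5.27, 5.62 and 4.90 RPKM in SWNT and at 5.36, 5.44, 7.74, 4.91 and 6.0 RPKM in SWNT-SHP1i. The SWNT libraries were close together, and SWNT-SHP1i replicates 3 and 6 lay above them. Its log2 fold change was 0.16 ± 0.17 (SE), and 0.04 without replicate 3. PRKAB2 (chromosome 4, 100378071 to 100394338, plus strand), the beta subunit most abundant in striated muscle, was at 4.75, 5.54, 5.63, 5.88 and 6.53 RPKM in SWNT. In SWNT-SHP1i it was at 5.27, 4.54, 4.5, 6.29 and 1.42 RPKM. Replicate 6 was far below the rest, and replicates 1 and 5 fell inside the SWNT range. Its log2 fold change was -0.36 ± 0.31 (SE), and -0.14 without replicate 6. PRKAB1 gave 48.3% ± 3.62 of the beta sum in SWNT and 58.6% ± 14.3 in SWNT-SHP1i (SD, n = 5 each). In SWNT-SHP1i replicate 6 it gave 80.8%, above every SWNT library.

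**Figure D2:**
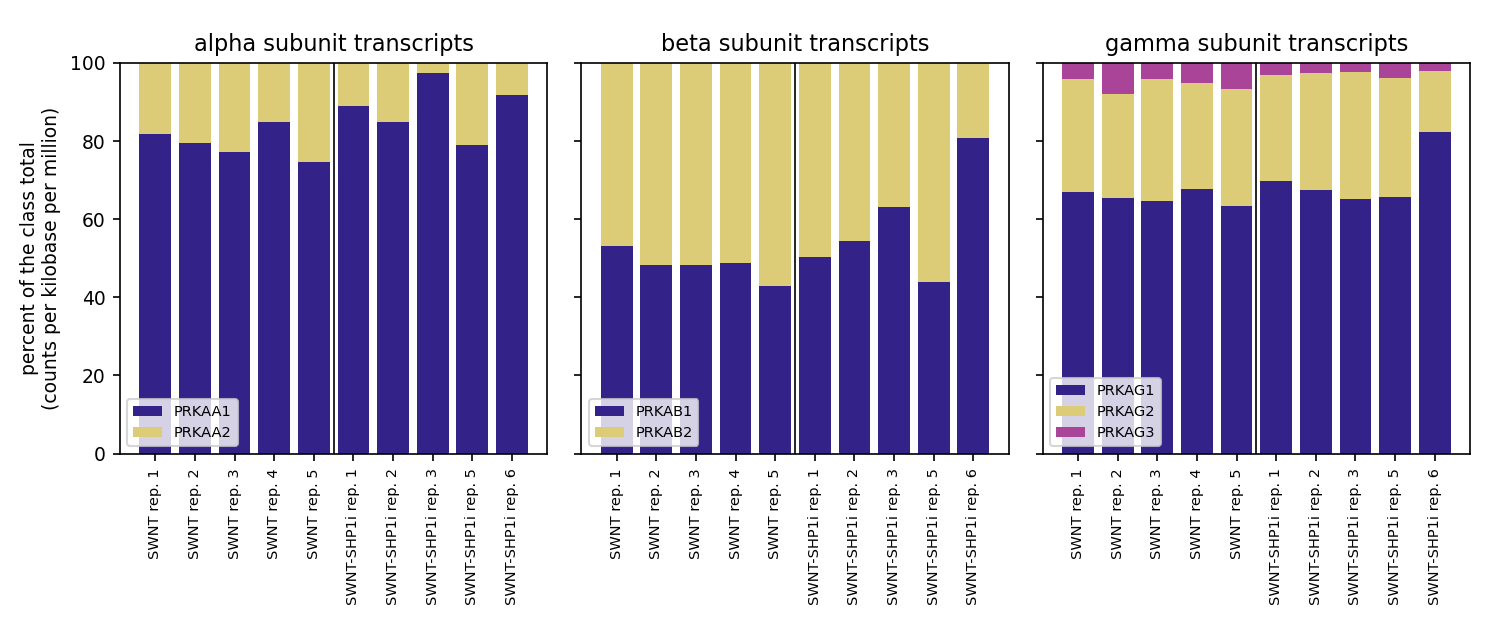
Share of each subunit in the summed RPKM of its class (alpha, beta and gamma), in percent, as stacked bars for each of the 10 libraries. PRKAG3 is the thin part of the gamma bars, 3.99% to 7.94% in SWNT and 2.01% to 3.76% in SWNT-SHP1i, and PRKAA2 is thinnest in the alpha bar of SWNT-SHP1i replicate 3, at 2.6%.

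STK11 (chromosome 2, 77230372 to 77249327, minus strand) encodes LKB1, which activates AMPK and a group of related kinases. It was at 33.7, 33.1, 44.8, 29.4 and 32.7 RPKM in SWNT replicates 1 to 5. It was at 30.0, 29.8, 29.5, 28.5 and 56.0 RPKM in SWNT-SHP1i replicates 1, 2, 3, 5 and 6. The first 4 of these were nearly equal, and replicate 6 was the highest of all 10 libraries. The log2 fold change was 0.00 ± 0.23 (SE), and -0.24 without that library. In SWNT-SHP1i replicate 6, STK11 was thus at its highest while PRKAA1, PRKAB2, PRKAG2 and PRKAG3 were at their lowest.

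**Figure D3:**
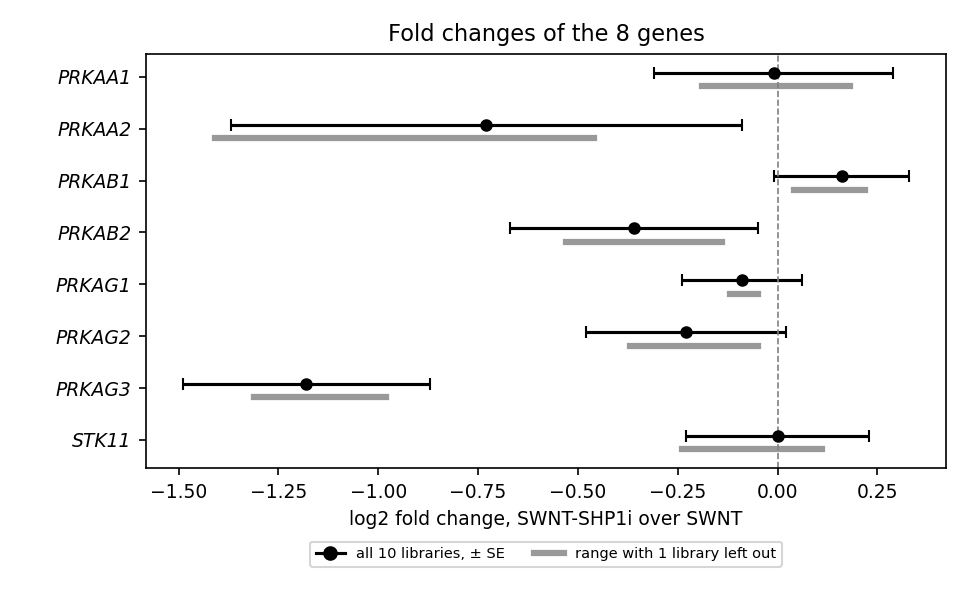
Fitted log2 fold change of SWNT-SHP1i over SWNT for the 8 genes, with the SE as a bar, and a grey line for the range with 1 library left out in turn. The line of PRKAG3 runs from -1.31 to -0.98 and that of PRKAA2 from -1.41 to -0.46, while those of PRKAA1 and STK11 cross 0.

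Ranked by mean RPKM over the 10 libraries, STK11 came highest at 34.7 ± 8.83 (SD, n = 10). It was followed by PRKAG1 at 21.2 ± 1.73 and PRKAG2 at 8.89 ± 2.13. PRKAB1 at 5.58 ± 0.825, PRKAA1 at 5.27 ± 1.51 and PRKAB2 at 5.03 ± 1.45 did not differ from their neighbours among these 3 beyond their spread. PRKAG3 at 1.33 ± 0.712 and PRKAA2 at 1.07 ± 0.627 came lowest and did not differ from each other beyond their spread. The order rests on the deposited exon lengths; divided by the exon bases within RefSeq, PRKAG3 would stand at 4.48 ± 2.39.

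Within libraries the paralogs were compared by the difference of their log2 RPKM, a measure that the choice of the genes did not use. The test was a two-sided exact sign-flip permutation test over the 10 libraries, adjusted over 5 pairs. PRKAA1 exceeded PRKAA2 in 10 of 10 libraries, by 2.58 ± 1.06 on the log2 scale (SD, n = 10), or 5.99-fold (exact p = 0.00195, adjusted p = 0.00244). PRKAG1 exceeded PRKAG2 in 10 of 10, by 1.30 ± 0.40 or 2.46-fold, with the same p. Undivided by exon length, however, PRKAG2 had the higher counts, with a log2 difference of -1.01 (exact permutation test, adjusted p = 0.00488), since its exon model spans 9710 bases against 1960 for PRKAG1. PRKAG1 exceeded PRKAG3 by 4.15 ± 0.71 (17.7-fold) and PRKAG2 exceeded PRKAG3 by 2.85 ± 0.61 (7.21-fold), again in 10 of 10 libraries each. The p of 0.00195 in these 4 pairs is the smallest that this test can give. PRKAB1 and PRKAB2 differed by 0.23 ± 0.73, with PRKAB1 higher in 5 of 10 libraries, which was within the spread between libraries (exact p = 0.428).

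The exon model behind PRKAG3's counts bears on its level. The model totals 5845 bases, of which the block at the 3′ end, from 120855201 to 120859281, holds 4081 bases (69.8%). RefSeq, on the same build, ends PRKAG3 short of that block, and 70.2% of the deposited exon bases lie outside the RefSeq gene. In the other 7 members that share ran from 0% to 16.9%. Divided by the 1740 bases within the RefSeq gene, with all counts kept, PRKAG1 exceeded PRKAG3 by 2.41 and PRKAG2 exceeded it by 1.11 on the log2 scale. The direction was unchanged in 10 and 9 of 10 libraries. The counts are given per gene, so how many of them fall in the block at the 3′ end was not tested.

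Beyond that block, 3008 bases away, lies the end of CYP27A1, which encodes sterol 27-hydroxylase and is transcribed towards PRKAG3 from the opposite strand. CYP27A1 was at 66.3 to 171 CPM in SWNT and at 33.4 to 115 CPM in SWNT-SHP1i. Its log2 fold change was -0.60 ± 0.32 (SE), and the groups overlapped. That difference was -0.34 without SWNT-SHP1i replicates 3 and 6. Over the 10 libraries the log2 CPM of PRKAG3 and CYP27A1 had r = 0.78 and rho = 0.75, values that include the group contrast by which PRKAG3 was selected and so carry no p here. Without the 2 libraries farthest from the CYP27A1 median, SWNT-SHP1i replicate 6 and SWNT replicate 3, r was 0.83. On deviations from the group means r was 0.72, also given without a p because the pair was picked after its values were seen. A pooled r with PRKAG3 at least as high as the 0.78 of CYP27A1 was found for 249 of 13025 named genes (1.9%). PRKAG3 had 5.72 to 13.2 counts per 100 counts of CYP27A1 in SWNT and 4.15 to 8.46 in SWNT-SHP1i, so this ratio overlapped between the groups. The strand setting of the counting is not given in the sources used here, and a part of CYP27A1 transcripts in the counts of PRKAG3 was not tested. This relation was computed after the gene model had been seen. No exon of any of the 8 members overlaps an exon of another annotated gene.

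**Figure D4:**
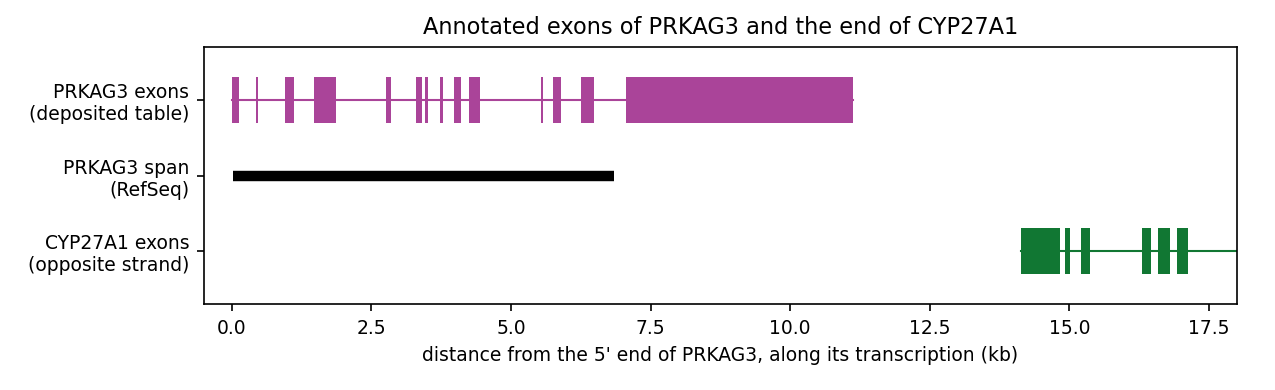
Exon blocks of PRKAG3 and of its neighbour CYP27A1 as deposited, beside the RefSeq span of PRKAG3, drawn to scale by distance in kb. The block at the 3′ end, 69.8% of PRKAG3's exon bases, lies outside the RefSeq gene and faces the end of CYP27A1.

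Skeletal muscle is where PRKAG3 is best known, and its markers were present unevenly in these arteries. Of 33 listed skeletal muscle genes, 29 were found by symbol and 12 passed the filter on low counts. MYH4, a fast myosin heavy chain, and MYOD1, a myogenic regulator, had a count of 0 in all libraries, and 10 further genes, among them MYH1, TNNT3, ACTN3 and MYOG, stayed under 1 CPM. ACTA1, skeletal alpha-actin, reached at most 3.41 CPM. By contrast 7 genes had counts in every library. They were CKM (6.93 to 166 CPM), CASQ1 (10.7 to 19.1), CACNA1S (1.58 to 29.8), MYBPC2 (3.79 to 23.3), PGAM2 (1.71 to 19.1), CA3 (0.868 to 39.4) and TCAP (0.868 to 6.07). Of the 12 tested genes 6 had negative and 6 positive fold changes, with a median of 0.07, 0 called and 1 higher at an unadjusted p under 0.05. CACNA1S, a calcium channel subunit, had a fitted change of -0.84 ± 0.52 (SE) on the log2 scale, and CASQ1, calsequestrin, had -0.37 ± 0.22. CKM, muscle creatine kinase, had 2.61 ± 0.69, or 1.57 with limma-voom, and was highest in SWNT-SHP1i replicate 3. TNNI2 had 2.05 ± 1.18, but -0.49 without SWNT-SHP1i replicates 3 and 6. The summed level of the list was 68.9 to 107 CPM in SWNT and 88.5 to 220 CPM in SWNT-SHP1i.

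Markers of 3 other cell types leaned one way between the groups, and 0 of their genes were called. For scale, 4.64% of all tested genes had an unadjusted p under 0.05, and 1.15% had one with a lower level in SWNT-SHP1i. Of 20 contractile smooth muscle genes, 19 were tested and 19 had negative fold changes, with a median log2 fold change of -0.57 against 0.01 over all genes, and 7 had an unadjusted p under 0.05. CNN1, which encodes calponin, had -0.84 ± 0.24 (SE). Their summed level was 54600 to 80360 CPM in SWNT and 26430 to 65210 CPM in SWNT-SHP1i. All 20 macrophage genes had positive fold changes, with a median of 1.28, and 15 had an unadjusted p under 0.05. Their summed levels were 1222 to 3013 CPM in SWNT and 1122 to 7598 CPM in SWNT-SHP1i. The 3 with the smallest p, CD163, CD14 and CD68, had 1.82 ± 0.45 (SE), 1.71 ± 0.56 and 1.84 ± 0.63. Without SWNT-SHP1i replicate 6 they were 1.57, 0.87 and 1.12. Of 9 tested Schwann cell and nerve genes, 8 had negative and 1 a positive fold change, with a median of -0.67 and 2 lower at an unadjusted p under 0.05. Their summed level, 200 to 254 CPM in SWNT and 99.0 to 169 CPM in SWNT-SHP1i, did not overlap between the groups. In whole artery, fewer cells of a type and less RNA per cell cannot be told apart. The part of these markers in PRKAG3's difference was not tested. SWNT-SHP1i replicate 5 had a smooth muscle score (mean centred log2 CPM of the list) of 0.37, within the SWNT range of 0.05 to 0.64, and the lowest macrophage score of all, -0.99. Its PRKAG3 level was 1.06 RPKM, the highest of the SWNT-SHP1i libraries and under the lowest SWNT level of 1.20 RPKM. This is 1 library, and nothing is read from it.

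Across the 10 libraries, each member was set against the smooth muscle, macrophage and skeletal muscle scores, which gave 24 relations with p-values adjusted over them. The pooled values for PRKAG3 include the group contrast by which the gene was chosen, so only those on deviations from the group means are given with a p. PRKAG3 and the smooth muscle score had r = 0.85 and rho = 0.88 pooled, and r was 0.71 without SWNT-SHP1i replicate 6 and SWNT replicate 2. On deviations from the group means r was 0.77 (exact permutation p = 0.00861, adjusted 0.103), which did not pass. Against the macrophage score PRKAG3 had r = -0.85 and rho = -0.77 pooled, r was -0.67 without SWNT-SHP1i replicates 6 and 2, and within groups r was -0.80 (exact permutation p = 0.00604, adjusted 0.103). Against the skeletal muscle score it had r = -0.31 and rho = -0.30 pooled, and within groups r was -0.49 (exact permutation p = 0.165, adjusted 0.319). Without SWNT-SHP1i replicate 3 and SWNT replicate 3, the pooled r was -0.86. The skeletal muscle score weights each tested gene equally and did not follow the summed level. SWNT-SHP1i replicate 3 had the lowest score, -0.68, but the highest sum, 220 CPM. These r values are therefore not a measure of relation to skeletal muscle content.

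PRKAB2, PRKAA2 and PRKAG2, subunits also known from skeletal or heart muscle, had positive r with the smooth muscle score. So did PRKAA1 and PRKAG1, so the positive sign was not particular to the muscle-known forms. For PRKAB2, r was 0.89 (adjusted permutation p = 0.013) and rho 0.76 (adjusted permutation p = 0.0531), and r was 0.73 without the 2 libraries farthest from the median score. For PRKAA2, r was 0.83 (adjusted permutation p = 0.013) and rho 0.85 (adjusted permutation p = 0.0224), and r was 0.80 without those libraries. For PRKAG2, r was 0.79 (adjusted permutation p = 0.0995) and rho 0.52 (adjusted permutation p = 0.349), and r was 0.13 without those libraries. For PRKAA1, r was 0.67 (adjusted permutation p = 0.133) and rho 0.25 (adjusted permutation p = 0.736), and r was -0.07 without those libraries. For PRKAG1, r was 0.24 (adjusted permutation p = 0.552). PRKAB1 went the other way, with r = -0.58 (adjusted permutation p = 0.204) and rho = -0.84 (adjusted permutation p = 0.0224). STK11 also had a negative r, -0.50 (adjusted permutation p = 0.26), with rho = 0.07. Leaving PRKAG3 aside, both r and rho passed after adjustment in 2 relations, namely PRKAA2 with smooth muscle and PRKAB2 with macrophages (r = -0.84, or -0.75 without the 2 farthest libraries, and rho = -0.79). Of the within-group values 0 passed, the smallest adjusted p being 0.103.

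**Figure D5:**
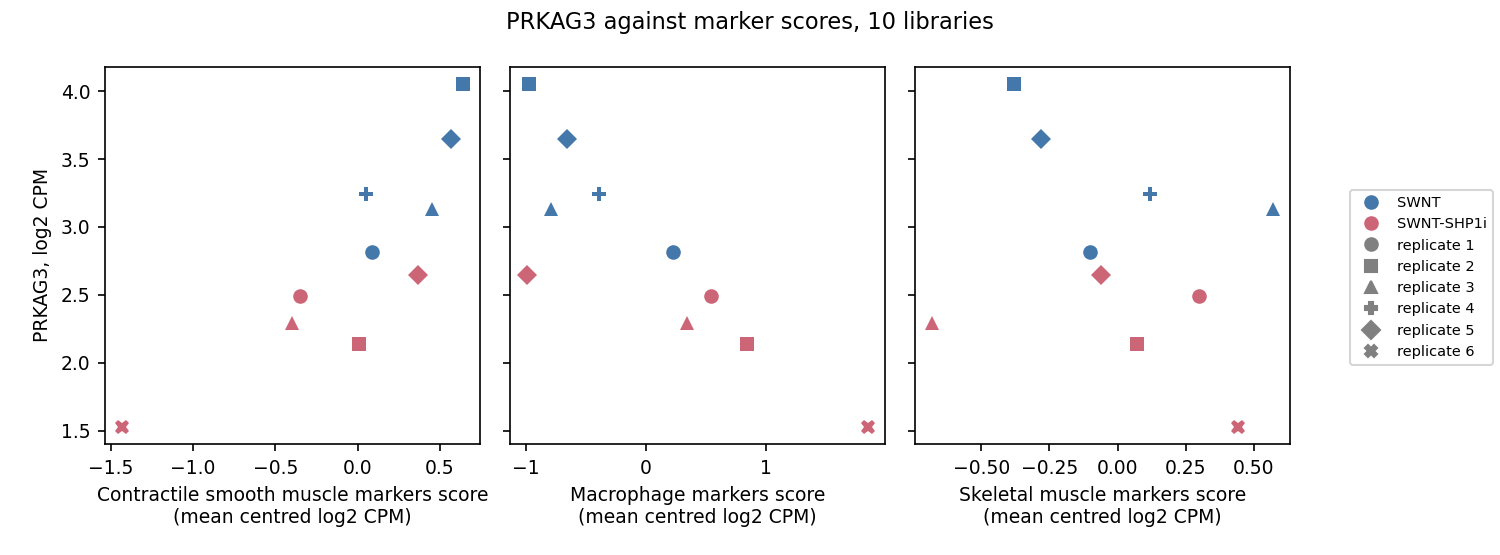
Level of PRKAG3 (log2 CPM) against the smooth muscle, macrophage and skeletal muscle marker scores, 1 point per library coloured by group. Pooled r is 0.85 with the smooth muscle score and -0.85 with the macrophage score, values that include the contrast by which PRKAG3 was selected. On deviations from the group means r is 0.77 and -0.80, and neither passed (adjusted exact permutation p = 0.103 each). Against the skeletal muscle score pooled r is -0.31, or -0.86 without replicates 3 of both groups. SWNT-SHP1i replicate 3 has the lowest skeletal muscle score but the highest summed skeletal muscle markers.

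Among themselves the members gave 28 pairs. After adjustment over the pairs, r passed in 2, and in 0 did both r and rho pass. PRKAA1 and STK11 had r = -0.94 (permutation p = 0.00068, adjusted 0.00952) and rho = -0.82 (adjusted permutation p = 0.0571), and r was -0.82 without SWNT-SHP1i replicates 5 and 6. PRKAA2 and PRKAB1 had r = -0.91 (permutation p = 0.00021, adjusted 0.00588) and rho = -0.83 (adjusted permutation p = 0.0571), and r was -0.82 without SWNT-SHP1i replicates 3 and 6. By contrast the r of 0.88 between PRKAA1 and PRKAB2 fell to 0.26 without SWNT-SHP1i replicates 5 and 6, so it rested on those libraries. For PRKAA2 and PRKAB2 rho passed, at 0.90 (adjusted permutation p = 0.026), and r did not. Their r was 0.71 (adjusted permutation p = 0.123), or 0.79 without SWNT-SHP1i replicates 3 and 6. The highest r of PRKAG3 with another member was 0.72, with PRKAB2. It includes the group contrast by which PRKAG3 was selected and so carries no p here.

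The genes whose log2 CPM was most like that of PRKAG3 over the 10 libraries were taken by Pearson's r from 13025 named genes. They were CPXM2 (r = 0.95), a carboxypeptidase-like secreted protein, ITGB5 (0.94), an integrin beta chain, VIPR2 (0.93), a receptor for vasoactive intestinal peptide, and NF2 (0.92), which encodes merlin. LYNX1 (0.91), SH3BGR (0.91), PARP16 (0.90), TPM2 (0.90), ENSA (0.89) and KCNMB1 (0.89) followed. TPM2, a tropomyosin, and KCNMB1, a potassium channel subunit, are also on the smooth muscle list. In 0 of these 10 genes were the treatment groups free of overlap. Over all tested genes the share was 0.276% with SWNT-SHP1i lower and 0.0816% with it higher. The log2 fold changes of the 10 genes ran from -0.68 in SH3BGR to -0.15 in NF2. The pooled r that picked them includes the contrast by which PRKAG3 was selected, so nothing is read from its larger change.

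Around AMPK, 5 lists of pathway genes were counted in the same fit, where 0 genes were called in any of them. Of 17 upstream partners and regulators, 8 had negative and 9 positive fold changes, with a median of 0.10 and 0 at an unadjusted p under 0.05. The 3 with the smallest p belong to the LKB1 complex, in which STRADA is the pseudokinase and CAB39 and CAB39L are the scaffolds. STRADA had a log2 fold change of 0.52 ± 0.27 (SE), CAB39 -0.42 ± 0.32 and CAB39L -0.45 ± 0.34. All 3 leaned on SWNT-SHP1i replicate 6, without which they were 0.32, -0.19 and -0.22. Without replicates 3 and 6 they were 0.05, -0.06 and -0.07.

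Of 25 AMPK substrates, 14 had negative and 11 positive fold changes, with a median of -0.04 and 0 at an unadjusted p under 0.05. RPTOR, the mTORC1 scaffold, had -0.18 ± 0.19 (SE), or -0.09 without SWNT replicate 3 and -0.29 without SWNT replicate 4. SREBF1, a regulator of lipid synthesis, had 0.57 ± 0.33, or 0.19 without SWNT-SHP1i replicate 6. BECN1, an autophagy protein, had -0.34 ± 0.23, or -0.18 without that library.

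Of 13 AMPK-related kinases, most of which LKB1 also activates, 10 had negative and 3 positive fold changes, with a median of -0.18 and 1 lower at an unadjusted p under 0.05. SIK1, a salt-inducible kinase, had -3.00 ± 1.17 (SE), but this rested on 1 library. SWNT replicate 3 had 667 CPM, the next highest library 32.4 CPM, and without SWNT replicate 3 the value was 0.13. NUAK2 likewise had -0.63 ± 0.40, or -0.07 without SWNT replicate 3. BRSK1, a kinase of neurons, had -0.38 ± 0.18, and 4 of 5 SWNT-SHP1i libraries lay below all SWNT libraries.

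Of 18 tested genes of energy metabolism downstream of AMPK, 9 had negative and 9 positive fold changes, with a median of -0.02 and 1 lower at an unadjusted p under 0.05. SLC2A4, the insulin-responsive glucose transporter GLUT4, had -0.62 ± 0.26 (SE), with 4 of 5 SWNT-SHP1i libraries below all SWNT libraries, and -0.39 without SWNT-SHP1i replicates 3 and 6. CPT1B, which admits fatty acids to mitochondria, had -0.32 ± 0.24, and NRF1, a regulator of mitochondrial genes, -0.28 ± 0.19. Without SWNT replicate 3 these were -0.12 and -0.16.

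Of 18 tested genes of glycogen metabolism, a store that AMPK binds and whose synthase it phosphorylates, 13 had negative and 5 positive fold changes, with a median of -0.10. At an unadjusted p under 0.05 there was 1 higher and 0 lower. GAA, the lysosomal glycogen-degrading glucosidase, had 0.49 ± 0.20 (SE), or 0.31 without SWNT-SHP1i replicates 3 and 6, from 86.8 to 119 CPM in SWNT and from 108 to 194 CPM in SWNT-SHP1i, so the groups overlapped. PYGM, muscle glycogen phosphorylase, had -0.55 ± 0.26, or -0.29 without those libraries, from 57.1 to 83.5 CPM in SWNT and from 28.4 to 79.9 CPM in SWNT-SHP1i. GYG2, a glycogenin that primes glycogen, had -0.43 ± 0.22, or -0.25 without them. All 15 genes named from these lists had an adjusted p of 0.9974 in edgeR's quasi-likelihood test with Benjamini-Hochberg adjustment.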

How the data were processed

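The authors deposited whole read counts per gene in 1 table of 35670 genes, not normalized, with each gene's position, strand and exon length per the file headers. The submitters' processing notes name Trim Galore, STAR, DESeq2 and the build Sscrofa11.1; the sources used here do not give versions, counting program, strand setting or annotation. Counts of 2 outnumbered counts of 1 in every library, and whether the 2 ends of a fragment were counted separately was not tested, so no counting intervals are given. Read duplicates are not described. Replicate numbers follow accession order and pair no animals.

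Symbols came from the table for 17508 genes and from a table of gene identifiers for a further 223. The filter was filterByExpr of edgeR 4.0.16 (R 4.3.3), which left 15930 genes with at least 99.89% of each library's counts, scaled by TMM. SWNT-SHP1i was compared with SWNT by edgeR's robust quasi-likelihood test without covariates, adjusted by Benjamini-Hochberg over the 15930 genes (threshold 0.05). The SE of a fold change was derived from the F statistic of its test (absolute fold change over the root of F), and fold changes compare fitted mean counts. Log2 CPM used a prior count of 2, and paralog differences used log2(RPKM + 0.01). Scores are means of centred log2 CPM over a list's tested genes. Permutation tests used 100000 resamples, 1024 sign flips or 14400 exact permutations within groups (scipy 1.17.1).

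The members and the lists were chosen with earlier results of these data known. Beside the members, the text names the 3 tested genes with the smallest p from each pathway list and from the macrophage list. It also names the 10 named genes with the highest r with PRKAG3, and skeletal muscle markers. CNN1 and CYP27A1 were added after their values were seen. The alternatives run were scaling by RLE or upper quartile, no filter or 1 CPM in 5 libraries, DESeq2 1.42.0, limma-voom (limma 3.58.1), a term for the animal number range, each library or SWNT-SHP1i replicates 3 and 6 left out, other pseudocounts and no division by length. PRKAG3's length within RefSeq, for its level and share, was added after seeing the data. No 2 libraries looked like copies: over 45 pairs, the median chi-square per gene was at least 5.89, against 0.455 from sampling noise. The fit was tested on simulated counts.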

Additional observations from a re-analysis of the deposited data

Results flagged for a closer look

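The 32 groups of 5 libraries checked (among them the levels and class shares of members in 1 treatment group) are not independent. Shares within a class depend on each other. In 4 of the groups, 1 library lay far from the others. About 1 in 20 groups is picked out so by chance, and all 4 concern the same library, SWNT-SHP1i replicate 6. There PRKAB2 was at 2.98 log2 CPM, against 4.63 to 5.11 in the other 4 SWNT-SHP1i libraries. PRKAG2 was at 5.20 log2 CPM, against 6.34 to 6.75. STK11 was at 7.38 log2 CPM, against 6.41 to 6.48. PRKAG1 gave 82.3% of the summed gamma RPKM, against 65.1% to 69.8%. The same library had the lowest total count, the lowest summed smooth muscle markers and the highest summed macrophage markers, and their part in these values was not tested.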

How the results depend on the processing

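The number of genes called between the treatment groups was 0 under all 19 alternatives run. PRKAG3 kept its direction under all 18 of its alternatives, from -1.31 (without SWNT replicate 1) to -0.98 (without SWNT replicate 2) on the log2 scale. It was selected on this contrast and its groups did not overlap, so nothing is read from its kept direction. The values of PRKAA1 and STK11 lay on either side of 0 depending on the libraries left out, from -0.19 to 0.25 and from -0.24 to 0.11, and PRKAB1 ran from 0.00 to 0.22. The other fold changes kept a negative sign. PRKAA2, PRKAB2 and PRKAG2 ran from -1.41 to -0.46, from -0.53 to -0.14 and from -0.37 to -0.05 when single libraries were left out. With limma-voom, PRKAB2 was at -0.20 and PRKAG2 at -0.10, and with a term for the animal number range PRKAA2 was at -0.95; the cause was not tested.

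Among paralogs, the difference PRKAG1 minus PRKAG2 turned to -1.01 without division by exon length, because their exon lengths differ. PRKAB1 minus PRKAB2, not past the threshold, turned to -0.07 without SWNT-SHP1i replicates 3 and 6. Leaving out single libraries gave 2.30 to 2.7 for PRKAA1 minus PRKAA2, 0.02 to 0.30 for PRKAB1 minus PRKAB2, 1.18 to 1.33 for PRKAG1 minus PRKAG2, 4.02 to 4.27 for PRKAG1 minus PRKAG3 and 2.75 to 2.97 for PRKAG2 minus PRKAG3. The 4 past the threshold stayed past it under the alternatives run, with adjusted exact permutation p up to 0.00977. The r of PRKAG3 with the skeletal muscle score ran from -0.61 to -0.10 over single libraries left out. No paired analysis was possible because the labels give no replicate numbers that groups share. Depth limits PRKAA2 most, with 12 and 13 counts in SWNT-SHP1i replicates 6 and 3.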

Other observations

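The summed markers of 2 further cell types overlapped between the treatment groups, as did the smooth muscle and macrophage sums. The adipocyte markers summed to 135 to 637 CPM in SWNT and 185 to 532 CPM in SWNT-SHP1i. For the endothelial markers the sums were 648 to 2033 CPM and 857 to 2699 CPM. Of 10 adipocyte genes, 7 had negative and 3 positive fold changes, with a median of -0.29 and 0 at an unadjusted p under 0.05. Of 10 endothelial genes, 2 had negative and 8 positive fold changes, with a median of 0.41. Among them 1 was lower at an unadjusted p under 0.05. The part of these cells in the levels of the AMPK genes was not tested.

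The low counts differed in form between libraries. In SWNT-SHP1i replicate 3 only 220 genes had a count of 1 to 9, against 902 in SWNT replicate 3, 2104 in SWNT-SHP1i replicate 6, and the other 7 libraries had 3031 to 3448 such genes. Among counts of 50 or more, 80.4% were even in SWNT-SHP1i replicate 3, 63.2% in SWNT replicate 3 and 63.6% in SWNT-SHP1i replicate 6, against 52.6% to 55.0% in the others. PRKAA2, at 13 and 12 counts in SWNT-SHP1i replicates 3 and 6, is the member nearest to that range of low counts.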
